A study of Mus musculus with 6 samples.

Results

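The genes described are 10 amino acid transporters of the cell surface in mouse embryonic stem cells, followed after the nucleolar protein nucleophosmin was lowered with an siRNA. They were taken by symbol from the deposited comparison, where all 10 of them have a row among 52535, and all 10 passed the filter of a mean normalized count of at least 10 that left 14284 genes for testing. The cells were of the E14 line, grown in N2B27 medium with LIF/2i, which holds them in naive pluripotency. There were 3 samples of wild-type cells given a control siRNA and 3 given an siRNA against Npm1, labelled as NPM1 knockdown; both groups went through the same lipid transfection and were collected 3 days later. All samples come from 1 cell line, and the labels do not say whether they were separate cultures, so each p-value reflects the variation among these 6 samples alone, and that variation may be technical. RNA was poly(A)-selected and sequenced from a single end.

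Amino acids cross the plasma membrane through families of carriers that differ in what they take and in what drives them. Some are uniporters for arginine and lysine, some use the sodium gradient to pull in glutamine, alanine or serine, and some are exchangers in which a light chain that moves the amino acids is carried to the membrane by a shared glycoprotein heavy chain. The amino acids taken up feed protein synthesis and signal through mTORC1, and when they run short the kinase Gcn2 raises translation of the transcription factor Atf4, which is known to switch on many transporter genes. Mouse embryonic stem cells are known to depend on threonine.

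Only pooled values were deposited: a mean over the 6 libraries, a log2 fold change and a p per gene, so no value per sample can be given. In the authors' deposited table Npm1 stood at 45.3% of control, which is -1.14 on the log2 scale with a 95% interval of -1.29 to -0.996, and its negative sign is what fixes the direction of every ratio, so it is no separate check of the groups. The means summed to 27631017 normalized counts over all genes. All 7 embryonic stem cell markers examined, Pou5f1 and Nanog among them, had means between 3740 and 23793 in the authors' deposited table. Of the markers of other cells, the 6 fibroblast genes had means between 0 and 20.6, with Postn and Dcn listed at 0, the 5 primitive endoderm genes lay between 1.28 and 34.4, and the 5 trophectoderm genes between 0.478 and 1436, the last being Tfap2c. None of the markers tested passed the threshold, and their part in the transporter results was not tested.

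The promoters of 3 transporters are shown first. They belong to the transporter that passed the test and to the 2 with an Atf4 type of motif in the windows searched. RefSeq promoter windows (GRCm38.p6, 250 bases before to 50 after an annotated start) were matched for 6 of the 10 genes, in 8 windows. Slc7a3, Slc7a5, Slc1a5 and Slc38a1 had no window and were not searched. The motif searched, TGATGNAA on either strand, is the composite element bound by Atf4 with a Cebp partner; its matches are in capitals and the sequence around them in lower case, each read from 5′ to 3′ on the minus strand.
Slc7a11, chr3:50443564-50443863: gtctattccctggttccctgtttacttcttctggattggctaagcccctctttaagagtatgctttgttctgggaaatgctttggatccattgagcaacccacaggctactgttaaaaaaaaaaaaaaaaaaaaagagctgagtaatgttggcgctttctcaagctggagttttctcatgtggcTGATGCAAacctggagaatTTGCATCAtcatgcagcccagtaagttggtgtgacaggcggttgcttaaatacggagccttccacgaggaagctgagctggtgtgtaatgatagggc
Slc1a4, chr11:20332664-20332963: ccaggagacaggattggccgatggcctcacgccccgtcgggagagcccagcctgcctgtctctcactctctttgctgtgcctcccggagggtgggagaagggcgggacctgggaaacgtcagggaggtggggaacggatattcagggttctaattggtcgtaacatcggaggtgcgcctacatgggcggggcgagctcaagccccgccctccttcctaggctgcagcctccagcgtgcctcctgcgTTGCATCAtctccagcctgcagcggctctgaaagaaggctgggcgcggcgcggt
Slc7a1, chr5:148399855-148400154: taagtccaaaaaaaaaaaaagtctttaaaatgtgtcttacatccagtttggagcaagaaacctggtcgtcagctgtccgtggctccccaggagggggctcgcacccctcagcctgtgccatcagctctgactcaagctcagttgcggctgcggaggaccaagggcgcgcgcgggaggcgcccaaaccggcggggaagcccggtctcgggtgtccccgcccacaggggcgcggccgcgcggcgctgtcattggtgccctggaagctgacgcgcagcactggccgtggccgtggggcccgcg
The Slc7a11 window holds 2 matches on opposite strands, starting 66 and 47 bases before the annotated start. In Slc1a4 there is 1 match, which begins 4 bases before the start and runs across it. This motif occurs in 3.97% of the 32851 windows in the whole promoter table. No match to these letters lies in either window of Slc7a1 or in those of Slc7a6, Slc38a2 and Slc3a2. Sequence outside the windows was not searched, so a motif elsewhere in these genes would be missed. The E-box CACGTG (7.15% of all windows) and the cAMP element TGACGTCA (1.79%) had no match in any of the 8 windows, while the GC box GGGCGG, present in 35.7% of all windows, had a match in the first Slc7a1 window and in those of Slc7a6, Slc1a4, Slc38a2 and Slc3a2. None of these motifs overlaps another in the windows shown. A match describes letters in a window and not a bound site. The Slc7a11 window also has the lowest GC content of the 8, at 44.7% with 4 CpG pairs, against 65% and 27 CpG pairs in the first Slc7a1 window and 65% and 21 in Slc1a4. The Slc3a2 window lies inside the GENCODE gene rather than at its outer end.

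**Figure D1:**
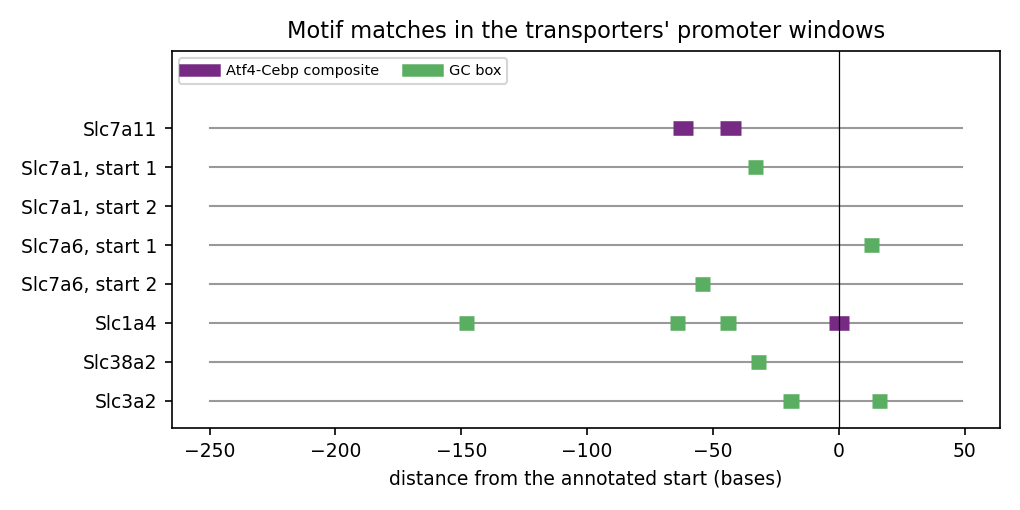
Motif matches in the 8 RefSeq promoter windows of 6 transporters, as distance in bases from the annotated start (grey line: window; purple: composite Atf4 and Cebp motif; green: GC box). Purple matches are in Slc7a11 (2) and Slc1a4 (1).

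Of the 10 transporters, Slc7a1 was lower after Npm1 siRNA and the other 9 did not pass the test. Across all genes tested, 4.3% were called in either direction and 2.07% were called lower (Benjamini-Hochberg adjusted p under 0.05), and the transporters gave a single call. The direction leaned one way without further calls: 8 of the 10 log2 fold changes were negative, against 49.6% over all tested genes. The median of the 10 was -0.09 against 0.00192. Of the negative values, those of Slc7a6 (-0.14), Slc7a5 (-0.04), Slc38a1 (-0.02) and Slc1a5 (-0.00793) had intervals that include positive values. The transporters were chosen with earlier results of these data known, so neither their direction nor their unadjusted p is independent evidence. At an unadjusted p under 0.05 there were 4 transporters, Slc7a1, Slc7a11, Slc3a2 and Slc1a4, each with a negative value, where 7.79% of all tested genes were negative at that level. Changes were small, and 9 of the 10 had log2 values between -0.25 and 0.13 by the authors' deposited table. Group levels below are derived from the pooled mean and the fold change, which assumes that both groups weigh equally in the mean. Summed over the 10 genes, they came to 38453 normalized counts in control and 36472 after Npm1 siRNA. In bulk RNA, fewer cells that make a transcript and less transcript per cell cannot be told apart.

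**Figure D2:**
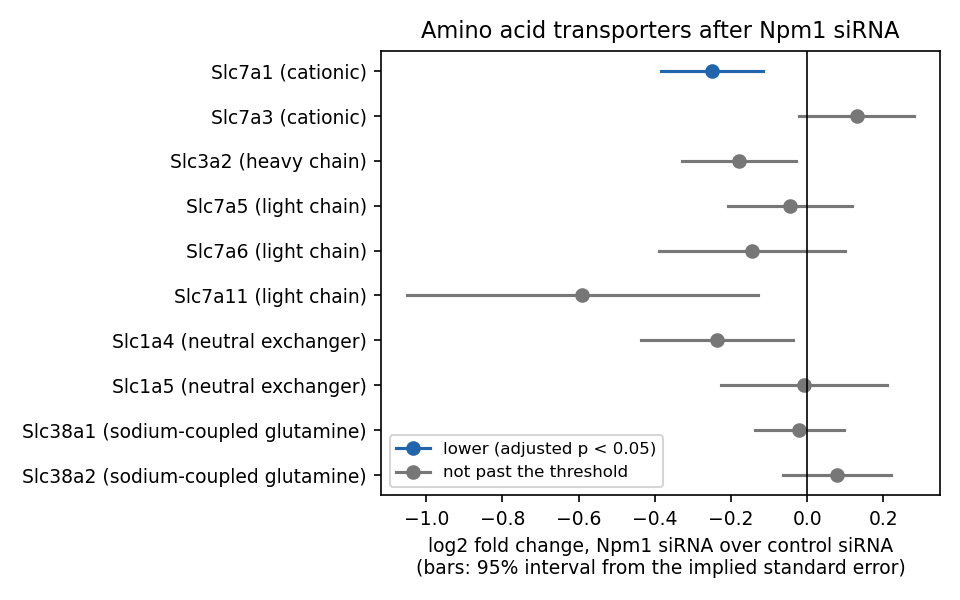
Log2 fold change of each transporter (Npm1 siRNA over control siRNA) with its 95% interval from the implied standard error, ordered by role. Slc7a1 (blue) passed the test at -0.25, and the intervals of Slc7a1, Slc3a2, Slc7a11 and Slc1a4 lie below 0.

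Slc7a1 and Slc7a3 encode uniporters for arginine, lysine and ornithine. Slc7a1 (chromosome 5, 148327410 to 148399904, GRCm38) had a mean of 5755 normalized counts in the authors' deposited table, with derived levels of 6253 in control and 5258 after Npm1 siRNA. It fell to 84.1% of control (log2 -0.25, 95% interval -0.38 to -0.12, adjusted p = 0.0107, the authors' deposited table for the fold change). That p ranked it 310 among the 14284 genes tested. The fall is modest and smaller than a fold of 1.2. A test against that fold in place of no change therefore could not call Slc7a1, and did not (adjusted p = 1).

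Slc7a3, on the X chromosome from 101079210 to 101086020, pointed the other way. Its mean was 2428 in the authors' deposited table, with derived levels of 2318 in control and 2537 after Npm1 siRNA. Its log2 value was 0.13 (95% interval -0.02 to 0.28, adjusted p = 0.418, the authors' deposited table for the fold change), so no change was detected, and the interval spans 98.5% to 122% of control. Per kb of longest transcript the level was 802 for Slc7a1 and 883 for Slc7a3, and per kb of merged exons it was 499 and 642. The share of Slc7a3 in the summed level of both per kb was 49.2% in control and 55.7% after Npm1 siRNA, as derived, or 53.04% and 59.5% with merged exons. Whether their fold changes differ from each other could not be tested without values per library.

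The heavy chain Slc3a2, also known as CD98, is the partner that the light chains Slc7a5, Slc7a6 and Slc7a11 need to reach the membrane. It lies on chromosome 19 from 8706882 to 8723369 and had a mean of 6896 in the authors' deposited table, with derived levels of 7323 in control and 6469 after Npm1 siRNA. Slc3a2 stood at 88.3% of control (log2 -0.18, 95% interval -0.33 to -0.03, the authors' deposited table for the fold change). Its unadjusted p was 0.0183 and its adjusted p 0.182, so it was not called. At its standard error of 0.08, Slc3a2 would have had to fall to 85.1% of control to pass.

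Slc7a5, the light chain for leucine and other large neutral amino acids, had the highest mean of the 10 transporters, 8044 in the authors' deposited table (chromosome 8, 121881150 to 121907694). Its derived levels were 8170 in control and 7919 after Npm1 siRNA, or -0.04 on the log2 scale (95% interval -0.21 to 0.12, adjusted p = 0.873, the authors' deposited table for the fold change). The interval runs from 86.6% to 108% of control, so a fall below that range lies outside it. Slc7a6, which exchanges cationic for neutral amino acids with sodium, was a minor light chain at a mean of 578 (chromosome 8, 106168857 to 106198706, the authors' deposited table). It stood at 90.5% of control, or -0.14 on the log2 scale (95% interval -0.39 to 0.0996, adjusted p = 0.646, the authors' deposited table for the fold change).

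Slc7a11 imports cystine in exchange for glutamate and supplies cysteine for glutathione. It spans 49892526 to 50443614 on chromosome 3 and was the scarcest of the 10, with a mean of 139 in the authors' deposited table. Derived levels were 167 in control and 111 after Npm1 siRNA, which is 66.4% of control. The log2 fold change of -0.59 was the most negative of the 10 and also the least precise (95% interval -1.05 to -0.13, the authors' deposited table for the fold change). With an unadjusted p of 0.0122 and an adjusted p of 0.145 Slc7a11 was not called, and at its standard error of 0.24 only a fall to 60.6% of control would have passed. Its interval reaches from 48.3% to 91.5% of control.

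Levels of the exchanger subunits can be set side by side per length. The 3 light chains summed to 2456 normalized counts per kb of longest transcript and the heavy chain stood at 2451, a ratio of 1.002, which became 1.18 with the length of all annotated exons merged. Slc7a5 made up nearly all of the light chain sum, at 2287 per kb, with 154 for Slc7a6 and 15.1 for Slc7a11. Adding Slc7a7 and Slc7a8, the other partners of Slc3a2 that passed the filter, gave a ratio of 1.09. These are transcript levels and say nothing of protein.

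Slc1a4 and Slc1a5 are sodium-dependent exchangers of small neutral amino acids, Slc1a4 taking alanine, serine and cysteine and Slc1a5 also glutamine. Slc1a4 (chromosome 11, 20302180 to 20332713) had a mean of 851 in the authors' deposited table, with derived levels of 921 in control and 782 after Npm1 siRNA. It stood at 84.9% of control (log2 -0.24, 95% interval -0.44 to -0.04, the authors' deposited table for the fold change), nearly the same fold as Slc7a1 but with a standard error of 0.10 in place of 0.07. Its unadjusted p was 0.0203 and its adjusted p 0.195, so Slc1a4 was not called.

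Slc1a5, on chromosome 7 from 16781340 to 16798274, had the fold change nearest to 0 of all 10 genes. Its mean was 1320 in the authors' deposited table, and its derived levels were 1323 in control and 1316 after Npm1 siRNA. Its log2 value was -0.00793 (95% interval -0.23 to 0.21, adjusted p = 0.99, the authors' deposited table for the fold change), which spans 85.5% to 116% of control. Per kb, Slc1a5 was the more abundant of this pair, at 470 against 217 for Slc1a4.

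Slc38a1 and Slc38a2 couple the uptake of glutamine and alanine to sodium, and Slc38a2 is the member known to be induced when amino acids are short. They are neighbours on chromosome 15, on the same strand, 44479 bases apart, at 96571418 to 96642913 and 96687392 to 96699730. Slc38a1 had a mean of 6632 in the authors' deposited table and derived levels of 6681 in control and 6584 after Npm1 siRNA. Its fold change, -0.02 on the log2 scale, was the most precisely measured of the 10 (95% interval -0.14 to 0.0959, adjusted p = 0.922, the authors' deposited table for the fold change), which spans 90.9% to 107% of control. Slc38a2 had a mean of 4819 and stood at 0.0774 on the log2 scale by the authors' deposited table (95% interval -0.06 to 0.22, adjusted p = 0.681), with derived levels of 4690 in control and 4948 after Npm1 siRNA. Slc38a4, the next tested gene on that side of Slc38a2 at 295090 bases, had a mean of 605 and stood at log2 -0.37 by the authors' deposited table (95% interval -0.67 to -0.07). Its unadjusted p was 0.0158 and its adjusted p 0.168, and none of these 3 neighbouring genes was called.

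**Figure D3:**
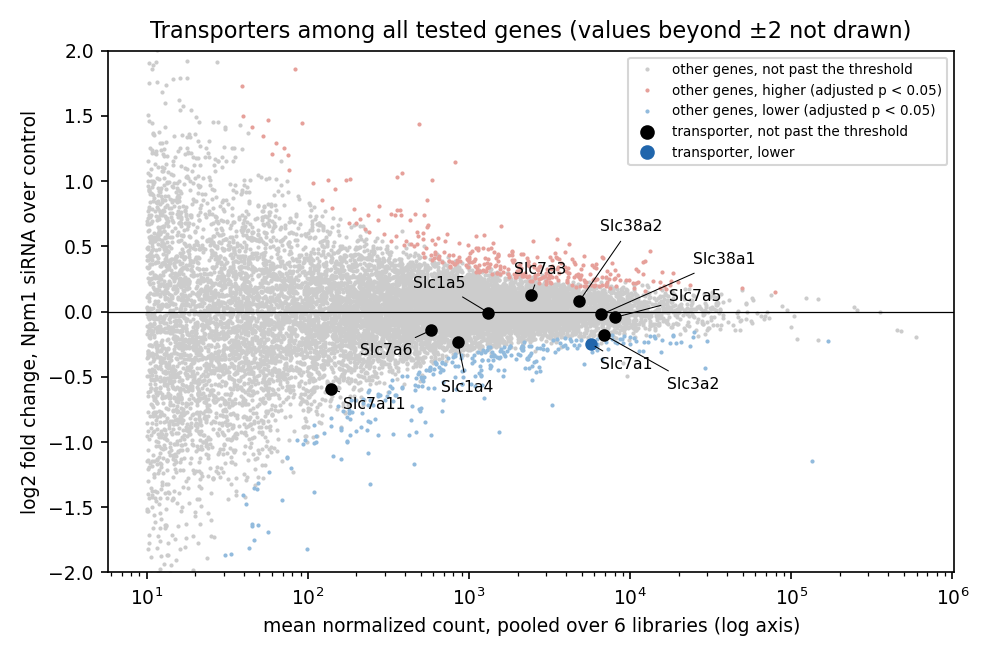
Log2 fold change against mean normalized count (log axis) for all 14284 tested genes, with the 10 transporters marked. The transporters lie between means of 139 and 8044, and Slc7a1 (blue) is the one that passed the test.

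Ordered by level per kb of longest transcript, the transporters spanned a wide range. Slc3a2 (2451) and Slc7a5 (2287) led, followed by Slc38a1 (913), Slc7a3 (883), Slc7a1 (802) and Slc38a2 (788). Slc1a5 (470), Slc1a4 (217) and Slc7a6 (154) came next, and Slc7a11 (15.1) was far below the rest. Since a pooled mean has no spread over samples, neighbours in this order cannot be separated, and with merged exon length Slc7a5 (2169) came above Slc3a2 (1954) and Slc38a1 (385) dropped below Slc7a3, Slc38a2 and Slc7a1. Standard errors of the log2 fold change lay between 0.06 and 0.08 for the 6 most abundant by mean count, and were 0.10 for Slc1a4, 0.11 for Slc1a5, 0.12 for Slc7a6 and 0.24 for Slc7a11.

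**Figure D4:**
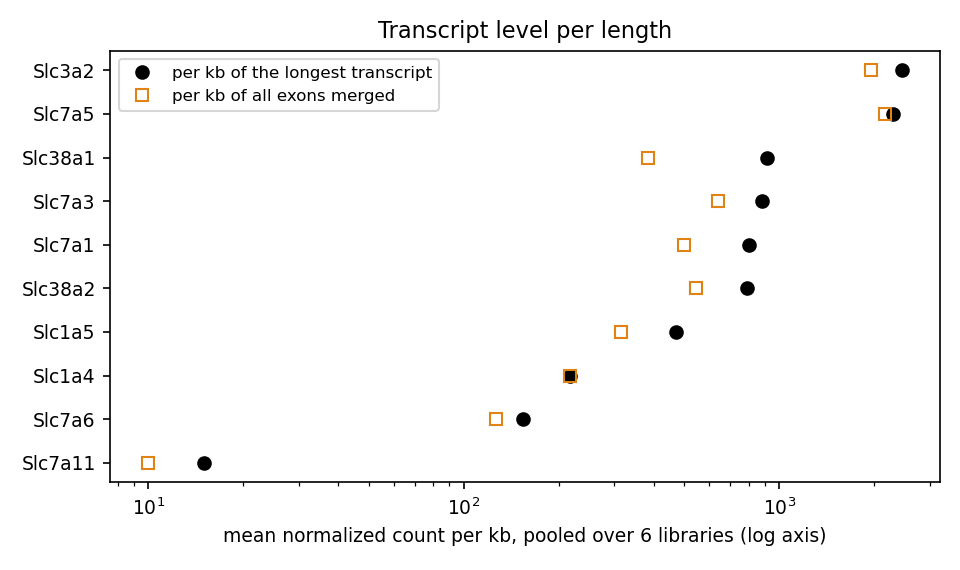
Mean normalized count per kb (log axis), pooled over the 6 libraries, for each transporter, by longest transcript (black) or by all exons merged (orange squares). Slc3a2 and Slc7a5 are the highest by either length and Slc7a11 at 15.1 or 9.98.

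The outer annotated starts of Slc3a2 and Slc7a5 lie close to another transcript on the opposite strand. For Slc3a2 the RefSeq promoter window lies inside the gene, away from its outer start. Snhg1, a host gene of small nucleolar RNAs, begins 106 bases from the outer start of the Slc3a2 annotation on the opposite strand, and by the authors' deposited table it had a mean of 2820 and stood at log2 0.12 (adjusted p = 0.391). BC048644, a noncoding transcript annotated as sharing a bidirectional promoter with Slc7a5, lies 139 bases from it and by the authors' deposited table had a mean of 13.2 and stood at log2 -0.94 (adjusted p = 0.628). Neither was called. The annotation places 6 further genes over the transporters, 1 over Slc7a5 and 5 over Slc7a11, and all 6 are listed at 0 in the authors' deposited table. Whether strand was used in counting is not given in the sources used here.

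Other carriers of amino acids or related compounds gave 1 call among 37 tested, beside 4.3% called over all genes. The 1 call was Slc25a40, related to a glutathione carrier, and no other carrier listed was called. Over all tested genes, 16.3% had an unadjusted p under 0.05. Of 35 further plasma membrane transporters listed, 18 passed the filter, 12 had lower means and 5 were listed at 0; none of the 18 was called, with 5 at an unadjusted p under 0.05 and a median log2 fold change of -0.01. Slc6a6, the taurine transporter, was the most abundant (mean 10293, log2 0.13, adjusted p = 0.242, the authors' deposited table), and Slc38a10 followed (mean 2618, log2 0.0846, adjusted p = 0.691, the authors' deposited table). None of 6 lysosomal transporters was called, and 1 had an unadjusted p under 0.05 (median log2 0.01). They included the glutamine and asparagine exporter Slc38a7 (log2 -0.15, adjusted p = 0.409, the authors' deposited table) and the cystine exporter Ctns (log2 0.29, adjusted p = 0.254, the authors' deposited table). Of 13 mitochondrial carriers 1 rose: Slc25a40, related to the glutathione carrier Slc25a39, reached 135% of control (log2 0.43, 95% interval 0.16 to 0.70, adjusted p = 0.0408, the authors' deposited table). That call was lost with no filter on low means (adjusted p = 0.0713) and with a length and GC trend subtracted (adjusted p = 0.0609).

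Among genes that sense amino acids for mTORC1, 2 of 32 rose and 1 fell, with a list median of 0.02. Over all tested genes, 2.23% were called higher and 2.07% lower. Lamtor1, which anchors the Ragulator complex at the lysosome, rose to 130% of control (log2 0.38, adjusted p = 0.00424, the authors' deposited table). Sesn2, a leucine-binding inhibitor of the pathway and also a p53 target, rose to 127% (log2 0.35, adjusted p = 0.00534, the authors' deposited table); it was not called once the length and GC trend was subtracted (log2 0.24, adjusted p = 0.111). Lars, the leucyl-tRNA synthetase, proposed in human cells as a leucine sensor, fell to 84.7% (log2 -0.24, adjusted p = 0.000516, the authors' deposited table).

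The list of the Gcn2 and Atf4 response to amino acid shortage had 2 genes that fell and 1 that rose among 19, and a median of -0.13. Over all tested genes, 2.07% were called lower and 2.23% higher. Nupr1, a stress-induced chromatin protein, fell to 75.9% of control (log2 -0.399, adjusted p = 2.96e-05, the authors' deposited table). Vldlr, a lipoprotein receptor, fell to 62.5% (log2 -0.68, adjusted p = 0.0368, the authors' deposited table), which was not called with no filter on low means (adjusted p = 0.0645). Impact, an inhibitor of Gcn2 activation, rose to 121% (log2 0.28, adjusted p = 0.00163, the authors' deposited table). Of this list 9 genes had an unadjusted p under 0.05, against 16.3% of all tested genes in either direction. Of those 9, 7 were negative, where 7.79% of all tested genes were negative at that level. These shares over all tested genes were not matched to the mean counts of the list. Atf4 itself was at -0.04 (adjusted p = 0.854, the authors' deposited table). This list and the transporters were both chosen with earlier results of these data known, so the direction of neither is independent evidence.

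Among 69 tested genes downstream of the transported amino acids, in 4 lists, 3 were called, beside the 4.3% called over all genes. An unadjusted p under 0.05 was reached by 16.3% of all tested genes. None of 21 genes of cystine use, glutathione and the Nrf2 response was called (4 at an unadjusted p under 0.05, median log2 0.02), with Txnrd1 at 0.07 (adjusted p = 0.657) and Prdx1 at -0.14 (adjusted p = 0.181) in the authors' deposited table. Of 18 enzymes of glutamine, glutamate and aspartate use, 2 fell and 1 rose (median -0.01). Gpt2, the mitochondrial alanine aminotransferase, fell to 76.4% of control (log2 -0.39, adjusted p = 0.00204, the authors' deposited table), and Ctps, which makes CTP with glutamine nitrogen, fell to 86% (log2 -0.22, adjusted p = 0.048, the authors' deposited table). Ctps lost its call with no filter on low means (adjusted p = 0.0837) and with the length and GC trend subtracted (adjusted p = 0.158). Glud1, glutamate dehydrogenase, rose to 117% (log2 0.23, adjusted p = 0.025, the authors' deposited table).

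None of 12 enzymes of threonine, glycine and branched-chain amino acid use was called (3 at an unadjusted p under 0.05, median 0.02), with the aminotransferase Bcat1 at 0.0655 (adjusted p = 0.607) and the glycine decarboxylase Gldc at 0.09 (adjusted p = 0.467) in the authors' deposited table. None of 18 enzymes that use arginine and methionine or make polyamines was called either (3 at an unadjusted p under 0.05, median 0.0756). Of all tested genes, 16.3% reached that unadjusted p. Odc1, which makes putrescine, was at -0.0929 (adjusted p = 0.434) and the S-adenosylmethionine synthase Mat2a at 0.0916 (adjusted p = 0.567) in the authors' deposited table. Arg1 and Arg2, the arginases, had means under the filter.

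Of 14 regulators of transporter transcription and turnover, 1 rose and 1 fell (median 0.02). Epas1, the hypoxia factor also called HIF-2 alpha, rose to 138% of control (log2 0.46, 95% interval 0.30 to 0.63, adjusted p = 1.06e-05, the authors' deposited table). Sgk1, a kinase that acts on the turnover of several membrane transporters, fell to 84.3% (log2 -0.25, adjusted p = 0.00063, the authors' deposited table). Over all 10 lists, 6 of 171 tested genes rose and 6 fell, beside 2.23% called higher and 2.07% called lower over all genes.

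**Figure D5:**
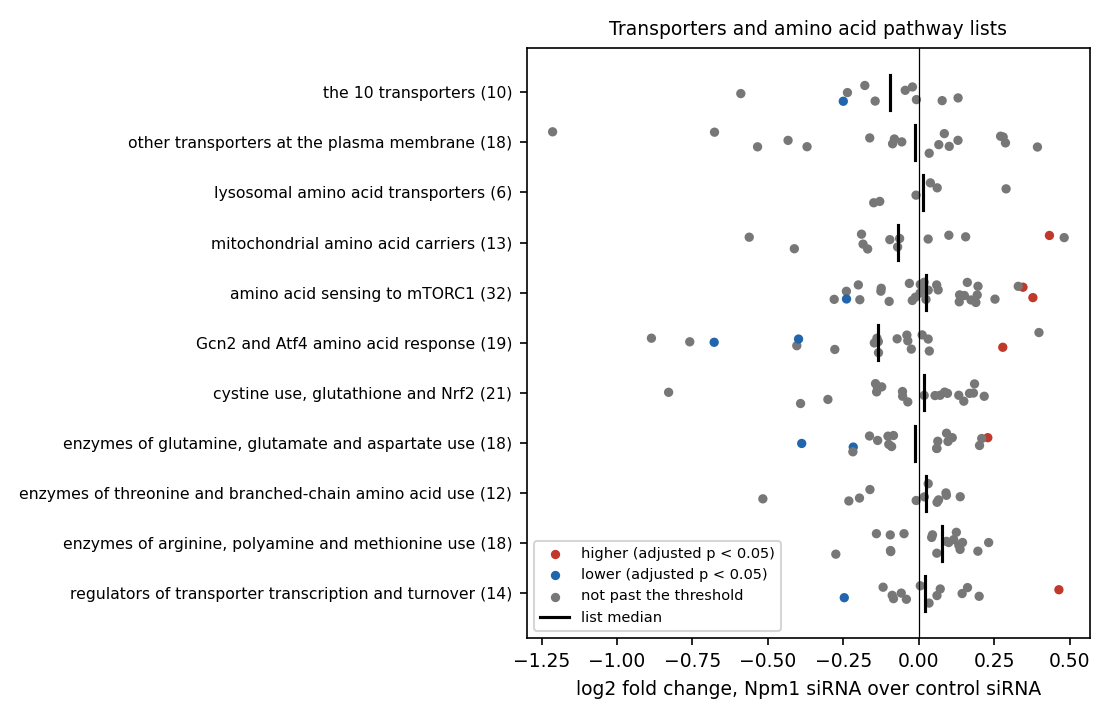
Log2 fold change of each tested gene in the 10 pathway lists and of the 10 transporters (numbers tested in parentheses; red, higher; blue, lower; grey, not past the threshold; black bar, list median). The transporters' median is -0.09 and the other list medians lie between -0.13 and 0.0756.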

How the data were processed

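Polyadenylated RNA of 3 control siRNA and 3 Npm1 siRNA samples was measured. The submitters' processing notes name FastQC, Trimmomatic 0.36, STAR and DESeq2, on GRCm38 (mm10); how reads were counted, with which strand setting and in which model is not given in the sources used here. The deposited table is the authors' own comparison, pooled over libraries. Its signal column is the authors' mean of counts divided by a scaling factor per library, called the mean normalized count. Its log2 column is the authors' deposited log2 fold change, with no stated direction, read as Npm1 siRNA over control because Npm1 is negative. Its p-value column is the authors' deposited unadjusted p. The depth per library is unknown.

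A count model on the libraries could not be fitted. The p-values were adjusted by Benjamini-Hochberg over the 14284 genes whose mean reached 10, with calls at an adjusted p under 0.05. The implied standard error is the log2 fold change over the normal quantile of its p, as in a Wald test; 95% intervals use it. This step and the trend fit were tested on simulated data. The simulated p had the same Wald form, so that test cannot show that the deposited p have it. Lengths, GC content and coordinates came from GENCODE M21 (GRCm38), matched for 13906 tested genes (97.4%), and promoters from RefSeq. Python 3.11.15, numpy 2.4.6, scipy 1.17.1 and pandas 2.3.3 were used. Named genes were the transporters, Npm1, and per list up to 4 called genes by p, or else the 2 most abundant; genes outside this rule (cluster neighbours, Atf4, Arg1, Arg2 and the genes listed with the promoter motif) were added after their values were seen. The members and the 10 lists were chosen with earlier results of these data known. Of the 200 listed symbols, 194 had a row. Alternatives were other filters on the mean, recentring, a trend on length and GC content, a test against a fold of 1.2, and another length for levels.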

Additional observations from a re-analysis of the deposited data

How the results depend on the processing

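Slc7a1 remained lower with no filter on low means (adjusted p = 0.0188), a mean of at least 50 (0.00854), recentring on the median (0.01) and a length and GC trend subtracted (0.00537). None of the other 9 transporters was called under these settings. Tested against a fold of 1.2, the count of transporters called was 0, the lists gave 0 higher and 0 lower, and over all genes 9 were higher and 12 lower. Of the 23 other named genes, 3 lost their call with no filter and 3 with the trend subtracted, and 12 did with the fold test. Some of the 23 had no call to lose, and Npm1 alone among them stayed called with the fold test. Levels per kb with merged exon length were 499 for Slc7a1, 642 for Slc7a3, 1954 for Slc3a2, 126 for Slc7a6, 9.98 for Slc7a11, 316 for Slc1a5, 385 for Slc38a1 and 545 for Slc38a2, all lower since that length is longer by construction. No paired analysis was possible because the table holds no values per library; for the same reason leaving out a library, a replicate block and another normalization were not run. Of the transporters Slc7a11 had the lowest mean, 139, and the largest standard error, 0.24.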

Other observations

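Genes with the composite Atf4 and Cebp motif (TGATGNAA on either strand) in a promoter window, as in Slc7a11 and Slc1a4, were looked at across all tested genes after the transporters' windows had been seen. Of 10226 tested genes with a window in the promoter table, 278 held the motif. Among those 278, 13 were lower (4.68%) and 3 higher (1.08%), where 2.21% and 2.46% of all tested genes with a window were lower and higher; no test was made of this difference. For the other motifs searched, 3.05% were lower and 2.64% higher with an E-box, 1.37% and 1.91% with a cAMP element, and 2.18% and 2.78% with a GC box. The median log2 fold change of the 278 genes was -0.06, against 0.0026 over all tested genes with a window. Those of the 278 that were lower included 4 cytosolic aminoacyl-tRNA synthetases, Aars (log2 -0.22, adjusted p = 0.000952), Tars (-0.23, adjusted p = 0.00128), Gars (-0.23, adjusted p = 0.00864) and Yars (-0.26, adjusted p = 0.0159), with fold changes from the authors' deposited table. The lowest adjusted p were those of Ank2 (log2 -1.32, adjusted p = 9.41e-07) and Synj2 (-0.94, adjusted p = 1.13e-06), both lower in the authors' deposited table. Nupr1 and Vldlr were also lower, as were Accsl, Serpinf1, Sgms2, Hax1 and Crabp1, and Scaf1, Gse1 and Manba were the 3 that were higher. The short motif also matches sequence with no known link to Atf4.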
